A study of Rattus norvegicus with 2 samples.

Results

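The genes described here encode the subunits of AMP-activated protein kinase (AMPK): Prkaa1 and Prkaa2 for the catalytic alpha subunit, Prkab1 and Prkab2 for the beta subunit, and Prkag1, Prkag2 and Prkag3 for the gamma subunit. They were chosen by gene symbol. All 7 were measured, by 9 of the 40012 probes, among 15613 named genes in all. Gene expression was compared between uncultured, untreated rat heart and mix1, a pool of cultured rat bone marrow cells and cultured rat primary ear fibroblasts, on 2 Agilent arrays with 2 colours. Each array carried 1 heart sample labelled with Cy3 and the same pool labelled with Cy5, with no dye swap. Strain, age and sex are not stated. Nothing in the labels ties the 2 heart samples to separate animals, so the spread behind each p-value may be technical.

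AMPK is a heterotrimer that senses the energy state of the cell. The alpha subunit carries the kinase, the beta subunit holds the complex together and binds glycogen, and the gamma subunit binds AMP, ADP and ATP. When ATP falls, the enzyme is activated by phosphorylation and shifts cells from synthesis towards fuel oxidation, which in heart muscle includes fatty acid oxidation and glucose uptake. The alpha subunit of Prkaa2, the beta subunit of Prkab2 and the gamma subunit of Prkag3 are known as the muscle-enriched forms, that of Prkag3 mainly in fast skeletal muscle. Those of Prkaa1, Prkab1 and Prkag1 are widely expressed. Prkag2 is expressed in many tissues, with much in heart, and was placed in neither class.

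Each value is a log2 ratio, heart over mix1, given for array 1 and array 2 and then as mean ± SD (n = 2). A ratio compares a gene between the tissues and says nothing about which subunit is more abundant. The log base and the direction of the deposited ratios are not stated. Base 2 was inferred from their range, and positive values were read as higher in heart because all 11 cardiac muscle markers, among them the cardiac troponin T gene Tnnt2 (6.27 on both arrays), were positive, which makes that direction likely and the markers no finding. The 8 fibroblast markers all lay on the side of mix1, between -8.36 for fibronectin (Fn1) and -1.57. Of the 7 bone marrow and myeloid markers, 2 were higher in heart, 2 lower and 3 did not pass the test, and ratios cannot show whether those genes were detected in the pool. The array medians were 0.01 and -0.14 over probes. Markers of other cells of the organ were also on the side of heart. As higher passed 6 of 6 endothelial markers (median 4.02), 3 of 3 erythroid markers (median 3.84) and 3 of 4 lymphocyte markers (median 2.82). The lymphocyte markers differed widely, from 0.55 for Cd3d to 6.15 for Cd3g. Cd3e, which did not pass, was at 2.44 on array 1 and 0.16 on array 2. The part of these cells in the subunit ratios was not tested. The 8 lung epithelial markers had a median of 3.74 on array 2 against 0.06 on array 1, with Sftpc at 6.68 against 0.84. They were not alike: Napsa was high on both arrays (3.22 on array 1, 3.59 on array 2), and Scgb1a1 reached only 0.76 on array 2. As means of their probes, the 7 subunits differed by 0.01 to 0.16 between the arrays. The part of lung cells in their ratios was not tested.

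The catalytic and beta subunits show the contrast the results turn on, so the DNA before their start sites is given first, with that of Prkag3, the member with the fewest CpG there. The sequences are the 250 bases before a start site in RefSeq (build GRCr8), 5′ to 3′ on the strand of the gene. Capitals mark E-boxes (CANNTG) and the M-CAT element (CATTCC).
Prkaa2, chr5:125108325-125108574, minus strand: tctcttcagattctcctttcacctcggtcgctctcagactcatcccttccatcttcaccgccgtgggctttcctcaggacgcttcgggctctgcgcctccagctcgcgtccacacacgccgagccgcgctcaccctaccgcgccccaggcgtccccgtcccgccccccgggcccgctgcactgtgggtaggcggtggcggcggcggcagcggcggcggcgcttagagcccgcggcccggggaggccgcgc
Prkaa1, chr2:55967525-55967774, plus strand: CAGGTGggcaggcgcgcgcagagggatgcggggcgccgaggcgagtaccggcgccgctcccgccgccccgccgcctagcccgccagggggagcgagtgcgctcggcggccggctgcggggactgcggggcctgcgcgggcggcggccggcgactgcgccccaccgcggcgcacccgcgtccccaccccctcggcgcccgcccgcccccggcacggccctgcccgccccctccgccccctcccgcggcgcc
Prkab2, chr2:187946151-187946400, plus strand: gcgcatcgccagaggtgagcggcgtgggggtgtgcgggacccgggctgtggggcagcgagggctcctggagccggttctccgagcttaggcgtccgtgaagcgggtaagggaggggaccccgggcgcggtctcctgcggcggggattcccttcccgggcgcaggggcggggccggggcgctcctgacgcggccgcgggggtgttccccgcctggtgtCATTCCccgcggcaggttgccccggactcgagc
Prkab1, chr12:46248845-46249094, plus strand: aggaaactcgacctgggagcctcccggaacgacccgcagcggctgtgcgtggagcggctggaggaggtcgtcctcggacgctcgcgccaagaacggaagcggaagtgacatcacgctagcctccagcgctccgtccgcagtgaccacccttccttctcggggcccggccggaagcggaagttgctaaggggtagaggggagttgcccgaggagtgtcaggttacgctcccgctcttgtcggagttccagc
Prkag3, chr9:83753630-83753879, minus strand: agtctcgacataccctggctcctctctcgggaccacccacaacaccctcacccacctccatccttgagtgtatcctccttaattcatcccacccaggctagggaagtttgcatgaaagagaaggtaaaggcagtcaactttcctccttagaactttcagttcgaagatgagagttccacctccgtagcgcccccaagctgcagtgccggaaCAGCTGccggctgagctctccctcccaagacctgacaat

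Promoter windows were found for all 7 members, 2 of them for Prkag2, which has more than 1 start site. In the window of Prkaa2 there were 33 CpG dinucleotides and 72.8% G or C. The window of Prkaa1 held 45 CpG and 86.4% G or C. Across 33469 promoter windows of the same length the medians were 5 CpG and 51.2%. Those of Prkab2 (31 CpG), Prkab1 (26 CpG), Prkag1 (17 CpG) and Prkag2 (33 and 42 CpG) were also above the median. Prkag3, with 7 CpG, lay closest to it. Searched on both strands, an E-box was present in the windows of Prkaa1 and Prkag3 and in the downstream window of Prkag2, and in 65.5% of all windows. The M-CAT letters were present in that of Prkab2 and in 12.1% of all windows. The letters AAGGTCA, an element of the kind bound by estrogen-related receptors (4.0% of all windows), the MEF2 site (2.96%) and the CArG box (1.5%) were not in any window of the 7 genes. The GC box, GGGCGG, was present in those of every member but Prkab1 and Prkag3, and in 30.5% of all. These are matches of letters in short windows. The Prkaa2 window held none of the muscle-type motifs searched, and any link between motifs and ratios was not tested.

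The subunits of AMPK differed in how far heart and mix1 stood apart. Among the 7 genes, 6 were higher and 1 lower in heart in limma's moderated test at an adjusted p of 0.05. Over all genes 72.9% passed this test, 31.4% higher and 41.5% lower, so that passing it is common. Folds are therefore given beside the calls: 4 of the 7 passed and differed by at least 2-fold, all of them higher, against 36.4% of all genes in either direction, 16.9% higher and 19.5% lower. Both counts hold Prkag3 by the mean of its 2 probes, at 5.0 and -0.57, which passed in opposite directions when tested on their own. In bulk samples a larger share of cells with a transcript and more transcript per cell cannot be told apart.

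Prkaa2, the catalytic subunit of muscle, was at 6.19 on array 1 and 6.30 on array 2. Both heart samples lay far on the side of heart, at a mean of 6.25 ± 0.08, which is 75.9-fold higher in heart (limma adjusted p 0.0012). Only 62 of the 15613 genes had a larger ratio towards heart. The signal of mix1 over background was not used here, and where it is low, a ratio of this size depends on how the background was treated. Prkaa1, the widely expressed catalytic subunit, was at -0.50 and -0.58. It was the 1 member lower in heart, at -0.54 ± 0.05, or 1.45-fold lower (limma adjusted p 0.00726). The catalytic subunits thus lay on opposite sides of 0 on both arrays. Each of them was measured by 1 probe, so no second probe could be set beside these values.

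The beta subunits did not follow the same order. Prkab1, the widely expressed form, was at 1.45 and 1.49. Its mean of 1.47 ± 0.02 is 2.77-fold higher in heart (limma adjusted p 0.00162). Prkab2, the form of muscle, was at 0.31 and 0.30, so that it lay below Prkab1 on both arrays. Its mean of 0.31 ± 0.009 is 1.24-fold higher in heart (limma adjusted p 0.0132), a call lost after median centring of the arrays (adjusted p 0.0728). Each beta subunit was measured by 1 probe.

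Among the gamma subunits, Prkag1, the widely expressed form, was at 0.77 and 0.78. Its mean of 0.78 ± 0.01 is 1.71-fold higher in heart (limma adjusted p 0.00313). For Prkag2, whose human counterpart is mutated in an inherited heart disease with glycogen storage, the values were 2.33 and 2.18. That mean of 2.25 ± 0.11 is 4.76-fold higher in heart (limma adjusted p 0.0018). The probes of Prkag2 pointed the same way, with means of 2.70 and 1.81. The second of them differed more between the arrays, at 1.96 and 1.65, than the first, at 2.69 and 2.70.

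Prkag3 was at 2.13 and 2.30 as the mean of its probes, 2.22 ± 0.11 or 4.64-fold higher in heart (limma adjusted p 0.00195), but neither probe had that value. The higher probe was at 4.92 and 5.08, a mean of 5.0 and 32-fold higher in heart. The lower probe was at -0.65 and -0.49, a mean of -0.57 and 1.48-fold lower in heart. Both passed when probes were tested on their own (limma adjusted p 0.00195 and 0.0176), in opposite directions, where 65.1% of all probes passed. Their gap of 5.57 was nearly the same on both arrays, and only 20 of the 3768 genes with more than 1 probe, Prkag3 included, had a gap at least as wide, against a median gap of 0.75. Both probes are annotated to the same transcript, and their positions in it were not used here. The direction of Prkag3 therefore rests on the probe taken, and its mean is not a measured level of any probe.

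**Figure D1:**
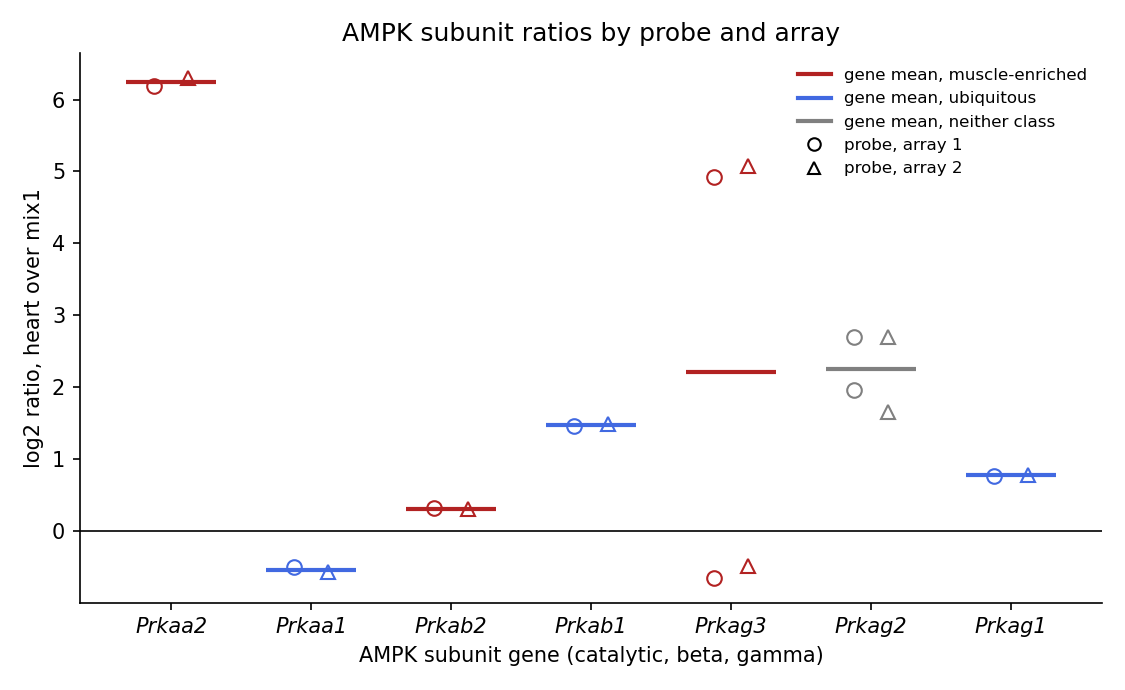
Log2 ratio of heart over mix1 for each AMPK subunit gene, with a symbol for each probe on array 1 (circles) and array 2 (triangles) and a bar at the gene mean. Prkaa2 stands at 6.25 and Prkaa1 at -0.54, while the probes of Prkag3 stand at 5.0 and -0.57 on either side of its mean.

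Genes of skeletal muscle were measured beside Prkag3, because its gamma subunit is known from that tissue. They were divided between the sides: of 12 measured markers, 6 were higher in heart, 3 lower and 3 did not pass. The fast myosin gene Myh1 was at -8.82 and -9.97, and Myh2 at -5.13 and -4.33, both far on the side of mix1. The muscle creatine kinase gene Ckm (6.71) and Actn2 (5.95), which heart also expresses, were far on the side of heart. The remaining marker lower in heart was Myh8 (-1.30). Also higher in heart were the embryonic myosin gene Myh3 (2.89), the myogenic factor gene Myog (1.83), the fast troponin gene Tnni2 (1.5) and Tnnt3 (0.34). Genes of fast muscle thus lay on both sides. The summed levels of a marker list cannot be formed from ratios. The part of these markers in the ratios of Prkag3 and the other muscle-enriched subunits was not tested.

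Ordered by ratio, Prkaa2 came first, followed by Prkag2, Prkag3, Prkab1, Prkag1, Prkab2 and Prkaa1. Prkag2 and Prkag3 could not be ordered, as Prkag2 was 0.19 above Prkag3 on array 1 and 0.12 below it on array 2 (-0.12 as Prkag2 minus Prkag3). The other neighbours kept their order on both arrays, with gaps from 0.47 ± 0.02 between Prkag1 and Prkab2 to 3.99 ± 0.18 between Prkaa2 and Prkag2. The place of Prkag3 in this order holds only for the mean of its probes. Among all genes, the ratio of Prkaa2 lay above 99.6%, that of Prkag2 above 92.7%, that of Prkab1 above 87.8% and that of Prkaa1 above 32.9%.

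**Figure D2:**
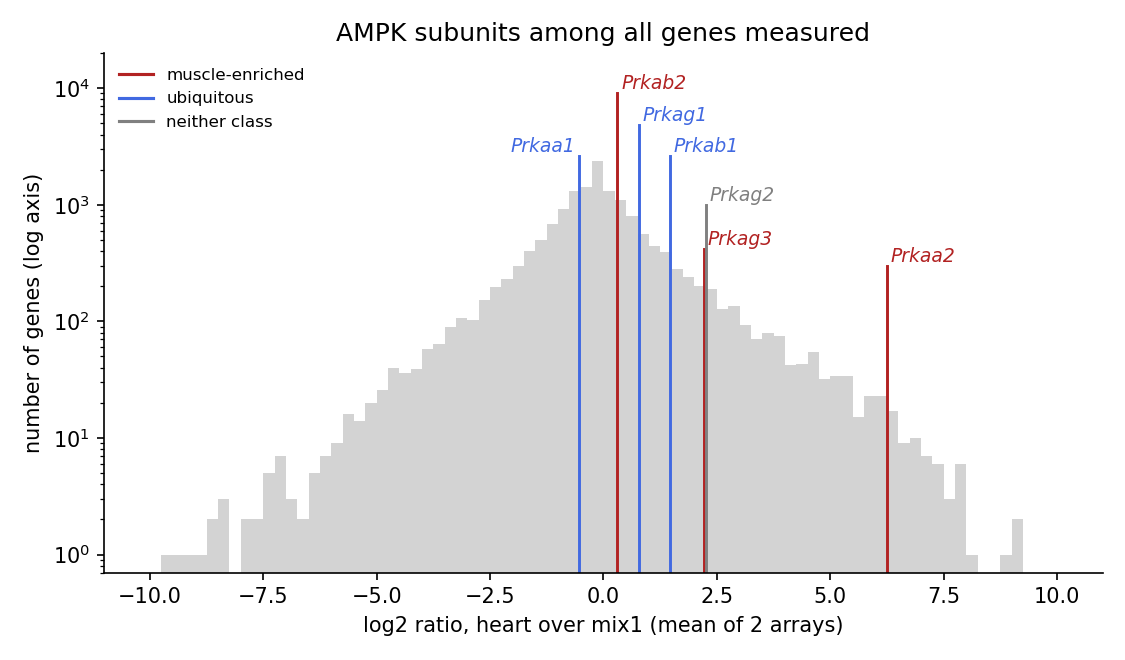
Number of genes (log axis) by mean log2 ratio of heart over mix1 for all 15613 genes, with a line at each AMPK subunit (line heights carry no value). Prkaa2 lies in the right tail, with 62 genes beyond it, and the other 6 subunits lie between -0.54 and 2.25.

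The muscle-enriched and ubiquitous subunits were then compared as differences of ratios on the same array, which a scaling of the whole array cannot change. These are values without a test, since an exact sign-flip test of 2 arrays cannot go below a p of 0.5. Prkaa2 exceeded Prkaa1 by 6.70 on array 1 and 6.88 on array 2 (6.79 ± 0.13), a 110.4-fold difference between their ratios. Prkab2 fell short of Prkab1 on both arrays, with differences of -1.14 and -1.19 (-1.16 ± 0.03). Prkag3 exceeded Prkag1 by 1.37 and 1.51 (1.44 ± 0.10), but with its lower probe alone the difference was -1.34 and with its higher probe alone 4.22. Prkag2, which is in neither class, exceeded Prkag1 by 1.56 and 1.39 (1.48 ± 0.12).

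As classes, the median of the 3 muscle-enriched subunits exceeded that of the 3 ubiquitous ones by 1.44 ± 0.10. The classes overlapped: the muscle-enriched genes ranged from 0.31 to 6.25 and the ubiquitous ones from -0.54 to 1.47. The middle genes of the classes were Prkag3 and Prkag1, so this difference is that of Prkag3 and Prkag1 again and no separate result. It turned to -0.47 with the lower Prkag3 probe alone and was 4.22 with the higher probe alone. With Prkag3 left out it was 2.5, from Prkaa2 and Prkab2 against Prkag1. Of the 3 pairs formed from these classes, the muscle-enriched subunit had the larger ratio in the catalytic pair and the smaller in the beta pair. Each gene of these pairs had 1 probe, so no other probe could be compared. In the gamma pair the sign rested on the Prkag3 probe taken.

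Muscle and ubiquitous forms of other proteins were set beside these pairs. In all 11 pairs measured, the muscle form had the larger ratio, by a median of 4.79, from 0.40 for the hexokinase genes Hk2 and Hk1 to 6.47 for the creatine kinase genes Ckm and Ckb. The difference of Prkaa2 and Prkaa1 (6.79) lay above all 11. By their means over the arrays, those of Prkag2 and, with probes averaged, Prkag3 against Prkag1 lay above 2 of the 11. They lay between the adenine nucleotide carriers Slc25a4 and Slc25a5 (3.49) and the phosphorylase kinase genes Phka1 and Phka2 (0.95). The Phka pair was at 0.46 on array 1 and 1.44 on array 2, where it lay above Prkag2 minus Prkag1 (1.39). The order of those pairs was thus not kept on both arrays. With its higher probe alone (4.22) the mean difference of Prkag3 lay above 4 of the 11. The nearest of these, Acacb minus Acaca, was at 4.55 on array 1 and 3.70 on array 2, so this place holds for the means only. With its lower probe alone (-1.34) the difference of Prkag3 lay below all 11. That of Prkab2 and Prkab1 (-1.16) also lay below all 11, and with probes averaged it was the only difference under 0. The muscle forms of these 11 pairs were listed with earlier results of these data known, and no test of the order was made.

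**Figure D3:**
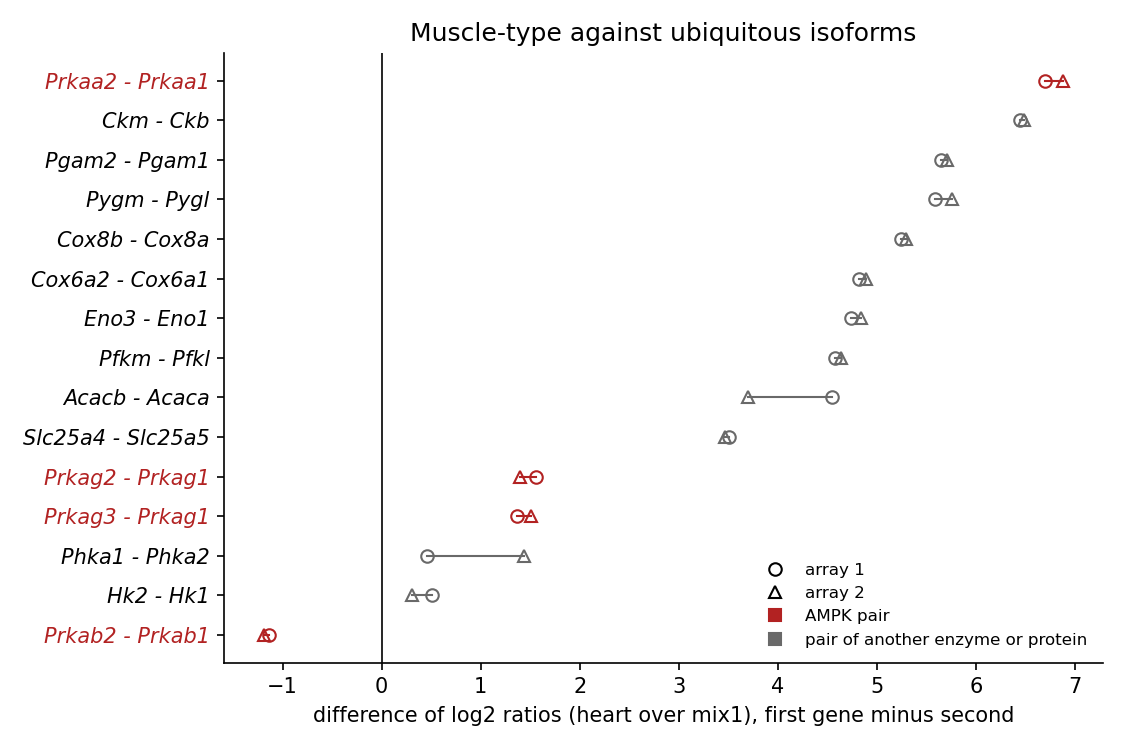
Difference of log2 ratios (heart over mix1) between paired isoforms on array 1 (circles) and array 2 (triangles), for 4 AMPK pairs (red) and 11 pairs of other proteins (grey). Each pair is a muscle-type form minus a ubiquitous one, except Prkag2 minus Prkag1, as Prkag2 was placed in neither class. With probes averaged, the catalytic AMPK pair has the largest difference, 6.79, and the beta pair the lowest, -1.16, while the lower Prkag3 probe alone (not drawn) would place Prkag3 minus Prkag1 at -1.34.

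The genes with ratios most like those of a subunit were found by the distance between the ratios over both arrays, among 15177 characterised genes. Nearest to Prkaa2 were Kcnj5, an atrial potassium channel gene, Tnnt2, a cardiac troponin gene, and Bves, at distances from 0.08 to 0.09. Only 4 genes lay within 0.1 of Prkaa2. Within the same distance of Prkag2 there were 32 genes, led by Mfn2, a gene of mitochondrial fusion, Ypel4 and Or1j10. Within it of Prkaa1 there were 392, led by Uvssa, Vcpip1 and Dll3, so its neighbours say little. With 2 arrays, likeness means only a similar ratio.

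The pathway around AMPK was divided, with 26 of 55 measured genes higher in heart, 20 lower and 9 not past the test. Their median was 0.04, against -0.09 over all genes. These are 47.3% higher and 36.4% lower, beside 31.4% and 41.5% of all genes. At least 2-fold differences were found in 22 of the 55, or 40%, close to the 36.4% of all genes. The counts by direction in each list below stand against the same shares of all genes, and lists this short allow no more than a description. The 4 lists below hold genes named for their known roles, and in each the largest ratios in either direction are given.

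Upstream of AMPK, the LKB1 gene and most of its partners were higher in heart and both calcium-dependent kinases were lower. Of 8 genes, 4 passed as higher and 3 as lower, and the median was 0.15. Stk11, which encodes the kinase LKB1, was at 0.79 and 0.71 (0.75 ± 0.06, limma adjusted p 0.00465). Its partners Stradb, a pseudokinase, and Cab39, a scaffold, were at 1.49 ± 0.10 and 0.64 ± 0.05. Strada, the other pseudokinase, was lower in heart at -0.58 ± 0.06. Camkk2, a kinase that activates AMPK in response to calcium, was at -2.82 on array 1 and -1.78 on array 2 (-2.30 ± 0.73, limma adjusted p 0.0251). Camkk1 was at -1.85 and -1.79 (-1.82 ± 0.04, limma adjusted p 0.00149). Both calcium-dependent kinase genes were thus lower in heart on both arrays. Map3k7, whose product TAK1 can also act upstream, did not pass (-0.11 ± 0.05).

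Of 14 regulators and sensors, 9 were higher, 4 lower and 1 did not pass, with a median of 0.47. Adipoq, which encodes the hormone adiponectin, was at 3.42 ± 0.11 and is itself a marker of fat cells. The other fat cell markers were at 0.45 for Lep, 0.24 for Cidec, which did not pass, and -0.90 for Plin1, and their part in the ratio of Adipoq was not tested. Ppm1e, a phosphatase that can act on AMPK, was at 3.46 and 3.24 (3.35 ± 0.16). The sestrins, stress proteins linked to AMPK, were divided, with Sesn1 at 3.15 and 3.18 (3.16 ± 0.02) and Sesn2 at -2.32 and -2.41 (-2.37 ± 0.06). The third, Sesn3, did not pass (-0.27 ± 0.19). Adipor2, a receptor for adiponectin, was lower in heart at -1.72 ± 0.02, and Fnip2, a partner of folliculin, at -0.79 ± 0.005.

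Of 23 genes for direct substrates or targets, 10 were higher in heart, 7 were lower and 6 stayed below the threshold, with a median of 0.02. The acetyl-CoA carboxylases, which AMPK inhibits, were on opposite sides. Acacb, the mitochondrial form that controls fatty acid oxidation, was at 3.87 and 2.97 (3.42 ± 0.64, limma adjusted p 0.00966). Acaca, the form of fatty acid synthesis, was at -0.68 and -0.73 (-0.70 ± 0.04), but its probes had means of -1.79 and 0.39, and the latter passed as higher when taken alone. Ppargc1a, the coactivator of mitochondrial biogenesis, had a ratio of 4.28 on array 1 but 2.20 on array 2 (3.24 ± 1.47). Its call was narrow (limma adjusted p 0.0477) and was lost with robust moderation (0.0532). Mff, a receptor for mitochondrial fission, was at 2.68 and 2.70 (2.69 ± 0.02). Tbc1d1, a regulator of glucose transporter traffic, was lower in heart at -1.21 ± 0.08. Srebf1, a transcription factor of lipid synthesis, was lower at -1.19 ± 0.27, as the mean of 3 probes from -2.80 to 0.63. Gys1, the muscle glycogen synthase gene, did not pass, at 0.03 and 0.01 (0.02 ± 0.01).

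Of 10 AMPK-related kinases, whose kinase domains are related to that of the alpha subunits, 3 were higher, 6 lower and 1 did not pass, with a median of -0.49. Sik1, a salt-inducible kinase, was at 2.22 and 2.25 (2.23 ± 0.02). Mark3 and Snrk were at 0.50 ± 0.04 and 0.16 ± 0.02, the latter a call lost after centring (adjusted p 0.295). Melk, a kinase of dividing cells, was at -4.05 and -4.13 (-4.09 ± 0.06). Mark1 was at -1.52 ± 0.08 and Nuak2 at -0.73 ± 0.06. The ratio of Prkaa2 lay above all 10 and that of Prkaa1 close to the median of the list.

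**Figure D4:**
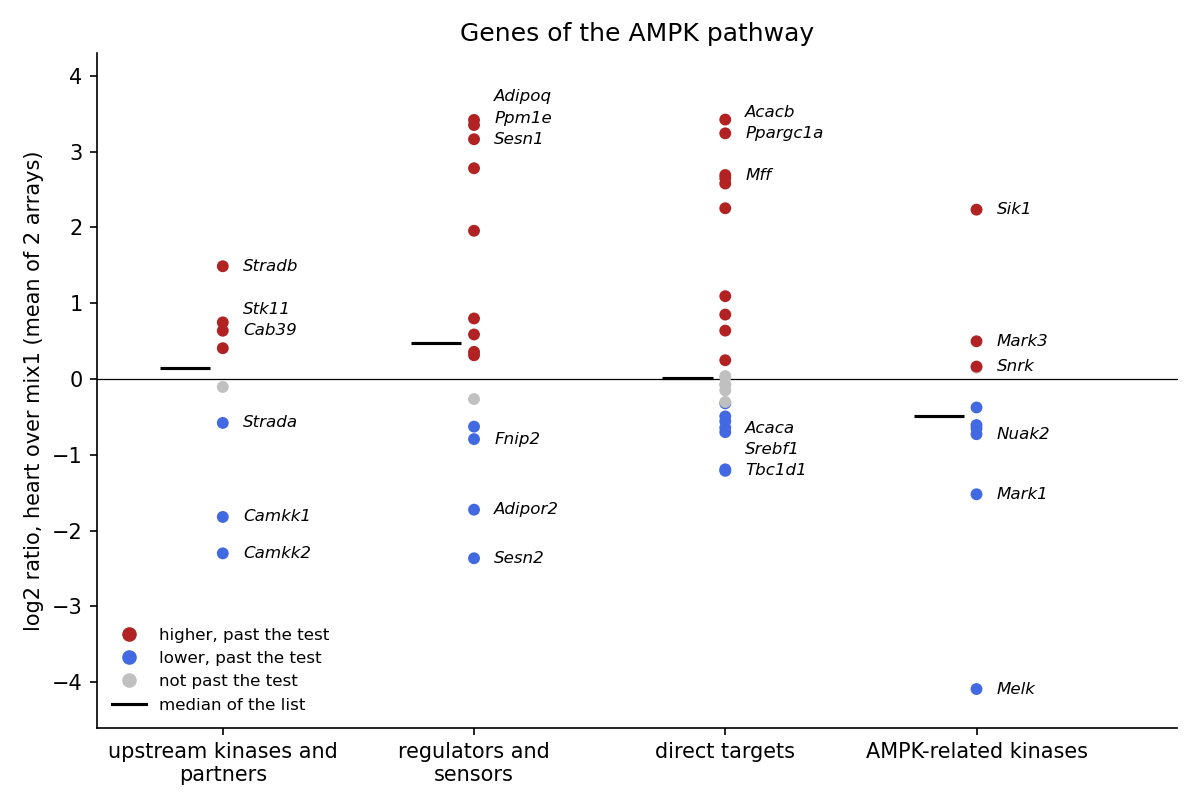
Mean log2 ratio of heart over mix1 for each measured gene of 4 lists around AMPK, coloured by the result of limma's test, with a short bar at the median of each list and names on the largest ratios past the test (some names are moved up to stay legible). The medians lie between -0.49 and 0.47, and single genes range from -4.09 for Melk to 3.42 for Acacb and Adipoq.

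Heart tissue was set against cultured cells, so tissue of origin and culture cannot be told apart. Without a dye swap, dye bias and expression cannot be told apart either, at any fold. The size of any dye bias was not measured, and smaller ratios leave the least margin for it. The calls below 2-fold include Prkaa1, Prkab2, Prkag1 and the lower probe of Prkag3. They also include 24 of the 46 pathway genes that passed, Stk11, Cab39, Strada and Acaca among them.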

How the data were processed

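Heart RNA of 2 samples was hybridised against the same mix1 pool. The deposited table holds 1 log2 ratio per probe and array. Per the submitters' processing notes the authors used Agilent Feature Extraction, with a version, background correction and dye normalization that no label states. The log base and direction were inferred as described. No spot intensities were used, so signal over background is unknown, and precision is limited by the number of arrays.

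The platform annotation gave 1 symbol for 20417 probes, several for 0 and none for 19595. Accessions without versions matched the GRCr8 gene table for 16978 probes, and 2300 symbols were updated. Probes of a gene were averaged. The test was that of limma 3.58.1 under R 4.3.3 (intercept, lmFit, eBayes, two-sided), with Benjamini-Hochberg adjustment over 15613 genes at 0.05. This leaves 1 residual degree of freedom. The same mix1 pool was the control on both arrays, so the p-values do not cover differences between pools. The code was tested on simulated data. Promoters come from RefSeq.

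Subunits and gene lists were chosen with earlier results of these data known. Named were all subunits and, in each list, the 3 highest and 3 lowest means past the test, besides genes that did not pass, markers, isoform pairs and nearest genes. Alternatives were centring, quantile normalization, other probe summaries, platform symbols, natural logs, robust moderation, a probe-level test, a 2-fold minimum and each array alone.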

Additional observations from a re-analysis of the deposited data

How the results depend on the processing

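Each of the 7 subunits kept its direction under centring, quantile normalization and platform symbols. Natural logs and robust moderation cannot change a direction. Other probe summaries changed none, but could do so only for Prkag2 and Prkag3, which had 2 probes each. The median of 2 probes equals their mean. For Prkag3 the probe that differed least between the arrays was the higher one, while the lower was at -0.57. Across these settings Prkab2 alone lost its call, after centring. That centred fit had infinite prior degrees of freedom. The probe-level test counted 6 subunits, since the probes of Prkag3 opposed each other. With a 2-fold minimum 4 of the 7 subunits and 22 of the 46 pathway genes remained, by construction. Read as natural logs, the differences became 9.79 for Prkaa2 minus Prkaa1, -1.68 for Prkab2 minus Prkab1, 2.08 for Prkag3 minus Prkag1 and for the classes, and 2.13 for Prkag2 minus Prkag1, all on the log2 scale. With the probe that differed least between the arrays they were 4.22 for Prkag3 minus Prkag1 and for the classes, and 1.92 for Prkag2 minus Prkag1. The class difference was 2.35 with means in place of medians and 2.5 without Prkag3. Chosen after seeing the data, the lower Prkag3 probe alone gave -1.34 for Prkag3 minus Prkag1 and -0.47 for the classes, and the higher probe 4.22 for both. On each array alone the differences ranged from 6.70 to 6.88 (Prkaa2 minus Prkaa1), -1.19 to -1.14 (Prkab2 minus Prkab1), 1.37 to 1.51 (Prkag3 minus Prkag1, and the classes) and 1.39 to 1.56 (Prkag2 minus Prkag1). A single array allows no test, so the counts of calls have no such value. Of the 24 pathway genes named for the largest ratios, Acaca changed its sign with the probe that differed least between the arrays (0.39). Ppargc1a lost its call with that choice (limma adjusted p 0.0532) and with robust moderation, and Snrk lost its call after centring (limma adjusted p 0.295). Centring left 41 pathway genes past the test and the probe that differed least 48, beside the 46. No paired analysis was possible because there is 1 group of arrays, each already a ratio to the same pool.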
